A study of Mus musculus with 6 samples.

Results

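The 10 genes described here take up fatty acids, carry them in the cytosol, activate and esterify them, and cover the lipid droplets in which they are stored. They were taken by symbol from a table of 55291 genes: Cd36 and Lpl (uptake), Fabp3, Fabp4, Fabp5 and Fabp7 (binding), Acsl1 and Dgat2 (activation and esterification), and Plin2 and Hilpda (droplets). All 10 had a row. Messenger RNA came from tumour-associated macrophages (TAM) of liver tumours in mice with hepatocellular carcinoma. There were 3 libraries labelled TREM2+ and 3 labelled TREM2-, for the presence or absence of TREM2, a lipid-binding receptor of macrophages. No treatment, genotype, strain, age, tumour model or sorting gate is given in the sources used here, nor whether replicates came from separate animals. The p-values therefore measure only the spread between these libraries, which may be technical.

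Macrophages obtain fatty acids in several ways. CD36 at the cell surface binds long-chain fatty acids and oxidised lipoproteins, and lipoprotein lipase, the product of Lpl, frees fatty acids from the triglycerides of circulating lipoproteins. Fatty acid binding proteins (FABP) hold the freed acids in the cytosol, acyl-CoA synthetases such as ACSL1 couple them to coenzyme A, and DGAT2 adds the last acyl chain of a triglyceride. Perilipin 2 (Plin2) coats the droplet, and HILPDA, a small protein induced by hypoxia, slows the breakdown of droplet triglyceride by inhibiting its lipase. Macrophages that fill with such droplets are found in atherosclerotic plaques, obese fat, injured liver and tumours.

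Levels are given as TPM, a level per unit of gene length, here rescaled so that each library sums to 1000000. Reads recovered from the table numbered 11493465 to 19929829 per library, and no replicate pair agreed within sampling noise (chi-square per degree of freedom 77.7 to 238). A repeat family around Gm10800 took 0.427% to 24.6% of the TPM and mitochondrial transcripts 2.42% to 12.35%, and both shares varied within each group. Trem2, which checks the labels, stood at 39.6, 40.8 and 30.7 TPM in TREM2+ replicates 1, 2 and 3 and at 16.9, 20.5 and 21.1 TPM in the TREM2- replicates. Its groups did not overlap, but the difference did not pass the test (adjusted p = 0.0855 in limma) and TREM2- libraries still held the transcript. Macrophage markers were present in every library, such as Adgre1 at 227 ± 13.7 (SD, n = 3) against 224 ± 97.1 TPM. Their levels were not all alike between the groups: Aif1 averaged 757 against 265 TPM, and Lyz2 31825.5 against 64190.2 TPM.

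Most of the 10 genes stood higher in the TREM2+ libraries. Cd36, Lpl, Fabp4, Fabp5 and Hilpda rose, by 2.84-fold to 4.14-fold on the log2(TPM + 1) scale. Fabp7 and Plin2 stood above every TREM2- library in all 3 TREM2+ libraries without passing the test, and Acsl1 and Dgat2 had overlapping groups. Fabp3 was too low to test. Each library holds RNA of many cells, so more cells of a type and more RNA per cell cannot be told apart. With limma on log2(TPM + 1) and Benjamini-Hochberg adjustment over 13788 genes, 5 of the 9 tested genes were called higher at an adjusted p under 0.05, where 2.05% of all tested genes were. None was called lower, where 0.37% of all genes were, and none had a lower level at an unadjusted p under 0.05. Limma's voom on recovered reads called 6 of the 9 higher and 0 lower, beside 444 higher and 170 lower among all genes it tested. Voom tested only genes with recovered whole reads, and the share of these that it called is not given here. In 7 of the 9 all TREM2+ libraries lay above all TREM2- libraries, against 9.07% of all tested genes, and in 0 they lay below, against 7.62%. All 9 had a TPM above 1 in every library, so the filter on low values did not choose them for their difference. Their median log2 fold change was 1.56, beside -0.09 over all genes tested. The genes were chosen with earlier results of these data known, so these comparisons with all genes are a description and not an independent test. The count of 5 called genes ranged from 0, without TREM2- replicate 3, to 7, without TREM2- replicate 2, when 1 library was left out. It was 3 without TREM2+ replicate 1 and 2 without TREM2+ replicate 3. Over all genes 282 were called higher with every library, and 116, 342, 148 and 153 in these fits, in that order.

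**Figure D1:**
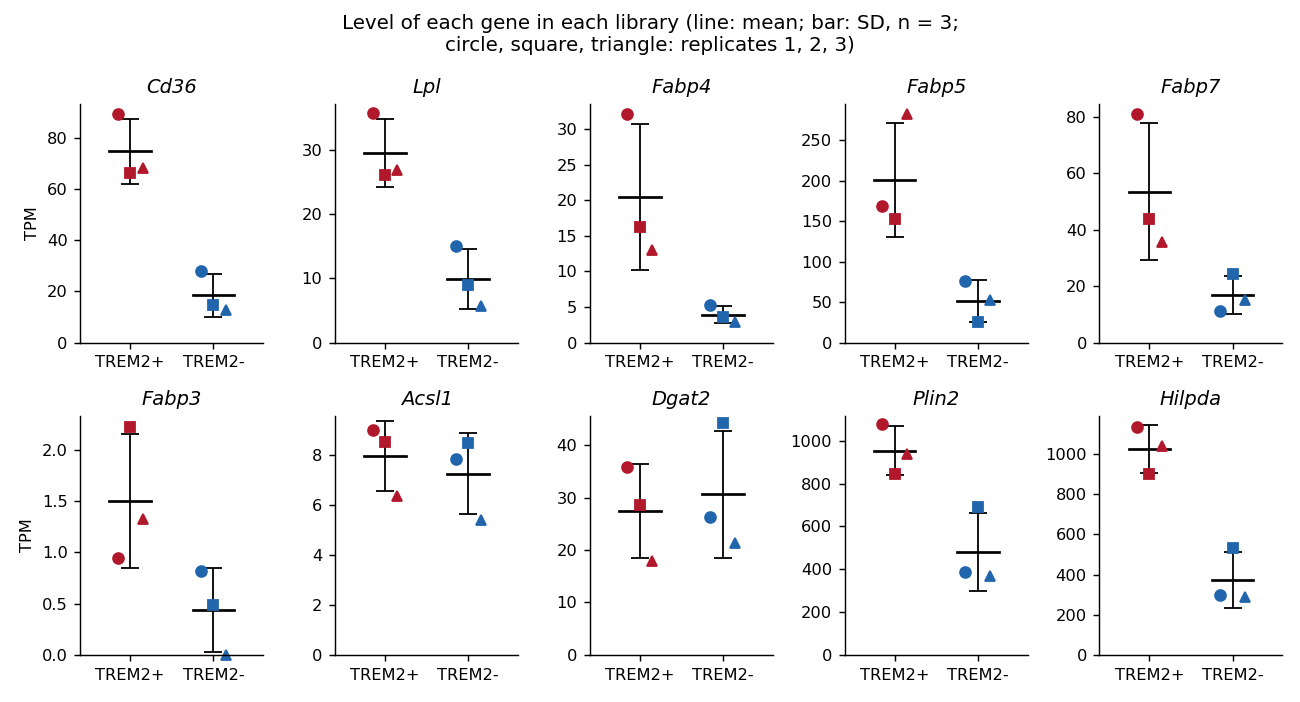
Level of each of the 10 genes (TPM, linear axes from 0) in the 3 TREM2+ (red) and 3 TREM2- (blue) libraries, with group means and SDs. In 8 panels the red points lie above all blue points, and in the panels of Acsl1 and Dgat2 they overlap. The 8 include Fabp3, near the limit of detection, whose lowest red and highest blue points both stand for 6 reads.

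**Figure D2:**
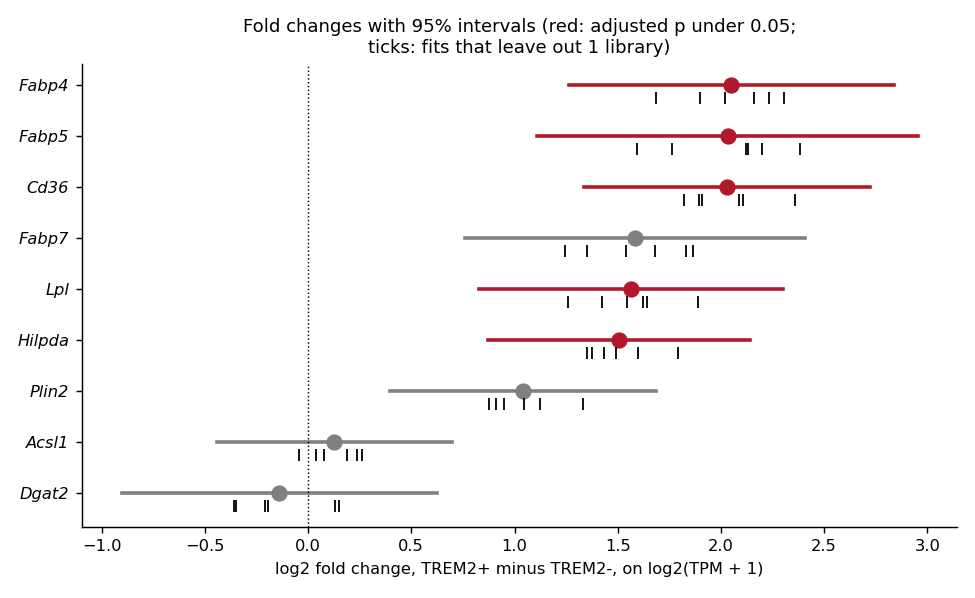
Log2 fold change of the 9 tested genes (TREM2+ minus TREM2-, on log2(TPM + 1)) with 95% intervals from limma. Red marks the 5 genes with an adjusted p under 0.05, and ticks show the 6 fits with 1 library removed, which stay above 0 for all genes but Acsl1 and Dgat2.

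Promoter sequence is shown for Hilpda, Plin2, Cd36 and Fabp7, the genes with a motif match among those whose groups did not overlap, so that the letters can be read beside their levels. It comes from RefSeq (GRCm38.p6, the assembly of mm10), with bases of annotated exons left off for Plin2, Cd36 and Fabp7. The first Hilpda stretch lies in the first exon of the transcript that begins at the upstream start, and the second runs from the end of that exon into the bases after it. Of the 10 genes, 6 matched that table, with 8 starts. Fabp4, Fabp5, Lpl and Dgat2 did not match. The 250 bases before each start were searched on both strands for the hypoxia response cores ACGTG and GCGTG, the nuclear receptor hexamer AGGTCA and its direct repeat with 1 base between, TATAAA, and the AP-1 site TGANTCA. A direct repeat also counts as hexamers. Capitals mark the matches and letters run 5′ to 3′ on the strand of the gene.

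Hilpda, chr6:29272494-29272523, plus strand, upstream of the downstream start: gcagTGAATCAaccgcgagccGCGTGcttt
Hilpda, chr6:29272596-29272625, plus strand, the last 30 bases before that start: cgagctcgtgcaggttcggtacGCGTGcgc
Plin2, chr4:86670061-86670309, minus strand: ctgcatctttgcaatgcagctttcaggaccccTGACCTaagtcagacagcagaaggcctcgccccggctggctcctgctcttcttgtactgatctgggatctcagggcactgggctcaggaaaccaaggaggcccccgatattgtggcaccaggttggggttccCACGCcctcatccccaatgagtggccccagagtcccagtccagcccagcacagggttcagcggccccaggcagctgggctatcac
Cd36, chr5:17835897-17836146, minus strand: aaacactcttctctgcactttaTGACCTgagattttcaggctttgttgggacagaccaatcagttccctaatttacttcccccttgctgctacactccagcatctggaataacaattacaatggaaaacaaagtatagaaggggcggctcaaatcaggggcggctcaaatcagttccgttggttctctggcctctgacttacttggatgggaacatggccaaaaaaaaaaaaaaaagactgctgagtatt
Fabp7, chr10:57784673-57784880, plus strand: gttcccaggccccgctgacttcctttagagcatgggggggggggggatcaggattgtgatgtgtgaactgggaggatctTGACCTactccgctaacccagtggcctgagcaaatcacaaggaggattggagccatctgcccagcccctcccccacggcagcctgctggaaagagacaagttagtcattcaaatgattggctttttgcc

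The downstream Hilpda start held 3 hypoxia cores, at 111, 43 and 8 bases before the start, where 6.58% of all 32851 promoters in the table held at least 3. It also held an AP-1 site at 128 bases, as 6.75% of all promoters do, and the window of the other Hilpda start held none of the motifs. Plin2 had 1 hypoxia core on the reverse strand at 86 bases and a hexamer at 218 bases, and 38.6% of all promoters held at least 1 hypoxia core. Cd36 and Fabp7 each had 1 hexamer on the reverse strand, at 228 and 171 bases, a motif in 14.0% of all promoters. Of the Acsl1 windows, 1 held a single hypoxia core at 208 bases and the other held no match, and Fabp3 had none. The direct repeat and TATAAA were found in none of the 8 windows, against 0.0335% and 12.4% of all promoters. The Cd36 start is that of RefSeq, and the bases after it were in no GENCODE transcript of the gene, which has several starts. These are matches of letters and not measured binding sites.

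Cd36 (ENSMUSG00000002944.15, chromosome 5, 17781690 to 17888801, minus strand, mm10) stood at 89.3, 66.2 and 68.3 TPM in TREM2+ replicates 1, 2 and 3 and at 27.9, 14.5 and 12.8 TPM in the TREM2- replicates. The lowest TREM2+ library was more than 2-fold above the highest TREM2- library. The means were 74.6 ± 12.8 and 18.4 ± 8.28 TPM, and the log2 fold change was 2.03 ± 0.31 (SE), with an adjusted p of 0.0115 in limma. Leaving out each library in turn kept the call 5 times of 6, and the limma adjusted p reached 0.0504 without TREM2- replicate 3. Its adjusted p lay between 0.000661 and 0.231 over all settings tried.

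Lpl (ENSMUSG00000015568.16, chromosome 8, 68880491 to 68907448, plus strand) stood at 35.6, 26.01 and 26.8 TPM against 14.99, 8.92 and 5.71 TPM in the TREM2- replicates. All 3 TREM2+ libraries were higher, and TREM2- replicate 3 was the lowest of the 6. The log2 fold change was 1.56 ± 0.32, with an adjusted p of 0.0443 in limma, close to the threshold. With single libraries removed the call held in 2 of 6 fits, those without TREM2- replicate 1 and without TREM2- replicate 2, and its adjusted p ranged from 0.00228 to 0.355 over all settings.

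The ratio of Lpl to Cd36 within a library was lower in all TREM2+ libraries. The log2 ratio of (TPM + 1) was -1.30, -1.31 and -1.32 in the TREM2+ replicates and -0.85, -0.65 and -1.04 in the TREM2- replicates. The groups did not overlap, and the difference of -0.47 had the smallest p that 3 against 3 libraries allow (exact permutation test, two-sided, p = 0.1, or 0.3 adjusted over 9 pairs of genes).

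Among the cytosolic binding genes, Fabp4 and Fabp5 lie near each other on chromosome 3 and both rose. Fabp4 (ENSMUSG00000062515.3, 10204088 to 10208576, minus strand), known from fat cells, capillary endothelium and macrophages, stood at 32.1, 16.2 and 13.01 TPM against 5.22, 3.61 and 2.91 TPM. The library numbered 1 was the highest and that numbered 3 the lowest in both groups, and the groups did not overlap. The log2 fold change was 2.05 ± 0.35 (adjusted p = 0.0195 in limma). Fabp4 kept its call in 5 of 6 such refits, with a limma adjusted p of 0.0929 without TREM2- replicate 3 and between 0.00232 and 0.222 over all settings.

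Fabp5 (ENSMUSG00000027533.10, chromosome 3, 10012548 to 10016607, plus strand), the form found in skin and macrophages, was the most abundant FABP gene of the set. It stood at 169, 153 and 283 TPM in the TREM2+ replicates and at 76.5, 24.96 and 52.9 TPM in the TREM2- replicates. TREM2+ replicate 3 was the highest library, and the groups did not overlap. The log2 fold change was 2.03 ± 0.41 (adjusted p = 0.0381 in limma). The call was lost without TREM2+ replicate 3 (adjusted p = 0.0967) and without TREM2- replicate 3 (adjusted p = 0.116), within a range of 0.00243 to 0.423 over all settings. Fabp5 has processed copies in the mouse genome, so its count is uncertain where reads could be split. The closest, Gm6166, which shares 77.95% of its stretches of 20 bases with Fabp5, stood at 3.17, 3.43 and 6.47 TPM against 1.37, 2.30 and 1.90 TPM.

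Fabp7 (ENSMUSG00000019874.11, chromosome 10, 57784881 to 57788450, plus strand), the brain form, is also expressed by Kupffer cells, the resident macrophages of the liver. Its levels were 81.1, 43.8 and 35.5 TPM against 11.3, 24.1 and 15.05 TPM. The groups did not overlap, and the log2 fold change of 1.59 ± 0.36, with a 95% interval of 0.76 to 2.41, missed the threshold (adjusted p = 0.0644 in limma). Without TREM2- replicate 2, the highest of its group, the adjusted p was 0.0129, and over all settings it ran from 0.0129 to 0.383.

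Fabp3 (ENSMUSG00000028773.8, chromosome 4, 130308595 to 130315463, plus strand), the heart and muscle form, was near the limit of detection. It had 6, 13 and 7 reads in the TREM2+ replicates (0.95, 2.22 and 1.32 TPM) and 6, 3 and 0 reads in the TREM2- replicates (0.82, 0.49 and 0 TPM). A count of 0 in TREM2- replicate 3 allows a level of up to 0.567 TPM, taking 3 reads as the limit and counting error only. The gene had a TPM of at least 1 in fewer than 3 libraries and was not tested. It overlaps Zcchc17 on the opposite strand (21.9 to 35.9 TPM), and a copy, Fabp3-ps1, shares 84.3% of its stretches of 20 bases with it, so even these reads are uncertain.

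The FABP genes did not keep fixed proportions from library to library. The log2 ratio of Fabp5 to Fabp4 was 2.36, 3.17 and 4.34 in the TREM2+ replicates and 3.64, 2.49 and 3.79 in the TREM2- replicates. The groups overlapped, with a difference of -0.02 (exact permutation test, two-sided, p = 1), a sign that turned to 0.45 without TREM2+ replicate 1. The log2 ratio of Fabp7 to Fabp4 was nearly constant in the TREM2+ libraries, at 1.31, 1.38 and 1.38, and spread from 0.98 to 2.45 in the TREM2- libraries, with overlapping groups and a difference of -0.46 (exact permutation test, two-sided, p = 0.4). Fabp7 over Fabp5 also overlapped (difference -0.45, exact permutation test, p = 0.6).

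Activation and the final step of triglyceride synthesis showed no detectable difference. Acsl1 (ENSMUSG00000018796.13, chromosome 8, 46471037 to 46536051, plus strand), an acyl-CoA synthetase induced in inflammatory macrophages, stood at 9.02, 8.52 and 6.37 TPM against 7.87, 8.51 and 5.43 TPM. The groups overlapped, and the log2 fold change was 0.13 ± 0.25 with a 95% interval of -0.44 to 0.70 (adjusted p = 0.909 in limma). Dgat2 (ENSMUSG00000030747.5, chromosome 7, 99153658 to 99182719, minus strand) stood at 35.8, 28.6 and 17.9 TPM against 26.4, 44.2 and 21.3 TPM. Its highest library was TREM2- replicate 2 and its lowest TREM2+ replicate 3. The log2 fold change was -0.14 ± 0.34 with an interval of -0.90 to 0.63 (adjusted p = 0.926 in limma).

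Within their families neither gene was the main form in every library. Acsl5 made up 67.6 ± 2.63% of the summed TPM of the 5 ACSL genes in the TREM2+ libraries and 74.0 ± 0.66% in the TREM2- libraries, while Acsl1 made up 11.3 ± 0.86% and 9.73 ± 1.65%. By TPM Acsl1 ranked after Acsl5 and Acsl4 in every library. By reads it stood above Acsl4, at 729, 637 and 429 against 657, 401 and 384 in the TREM2+ replicates. In the TREM2- replicates Acsl1 had 735, 665 and 366 reads against 632, 352 and 265 for Acsl4. The order of Acsl1 and Acsl4, and their shares, thus depend on the summed exon lengths used, 10483 and 5405 bases. Dgat2 held 51.0%, 41.2% and 19.5% of the summed TPM of Dgat1 and Dgat2 in the TREM2+ replicates and 37.9%, 51.5% and 38.3% in the TREM2- replicates. The log2 ratio of Dgat2 to Acsl1 overlapped between the groups (difference -0.26, exact permutation test, two-sided, p = 0.5).

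The droplet genes were the most abundant of the set. Hilpda (ENSMUSG00000043421.8, chromosome 6, 29272488 to 29275446, plus strand) stood at 1136, 901 and 1042 TPM against 299, 533 and 289 TPM. All TREM2+ libraries were higher, and TREM2- replicate 2 stood apart from the other TREM2- libraries. The log2 fold change was 1.51 ± 0.28 (adjusted p = 0.0278 in limma). With single libraries removed the call held in 2 of 6 refits, those without TREM2+ replicate 2 and without TREM2- replicate 2, and the adjusted p ranged from 0.00382 to 0.376 over all settings.

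Plin2 (ENSMUSG00000028494.12, chromosome 4, 86648386 to 86670060, minus strand) followed the same order of libraries, at 1077, 847 and 939 TPM against 385, 693 and 368 TPM. The groups did not overlap, but the log2 fold change of 1.04 ± 0.28, with an interval of 0.39 to 1.68, did not pass (adjusted p = 0.123 in limma). It passed only without TREM2- replicate 2, with an adjusted p of 0.0203 and a log2 fold change of 1.33, and over all settings the adjusted p ran from 0.0203 to 0.584. Plin2 made up 95.1 ± 0.50% of the summed TPM of the 5 perilipin genes in the TREM2+ libraries and 91.5 ± 2.29% in the TREM2- libraries. Plin3, a perilipin found in many tissues, made up nearly all of the rest, while Plin1 and Plin4, the forms of fat cells, were at or near 0.

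Hilpda and Plin2 ranked the libraries alike, and their ratio within a library lay apart between the groups. The log2 ratio of Hilpda to Plin2 was 0.08, 0.09 and 0.15 in TREM2+ replicates 1, 2 and 3 and -0.36, -0.38 and -0.35 in the TREM2- replicates. The spread within a group was at most 0.04 (SD), and the difference of 0.47 kept between 0.45 and 0.48 when 1 library was left out. TREM2+ libraries thus held slightly more Hilpda than Plin2 per unit length, and TREM2- libraries less. In an exact permutation test, two-sided, p was 0.1 (0.3 adjusted over the 9 pairs), the smallest value that 3 against 3 libraries can reach.

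**Figure D3:**
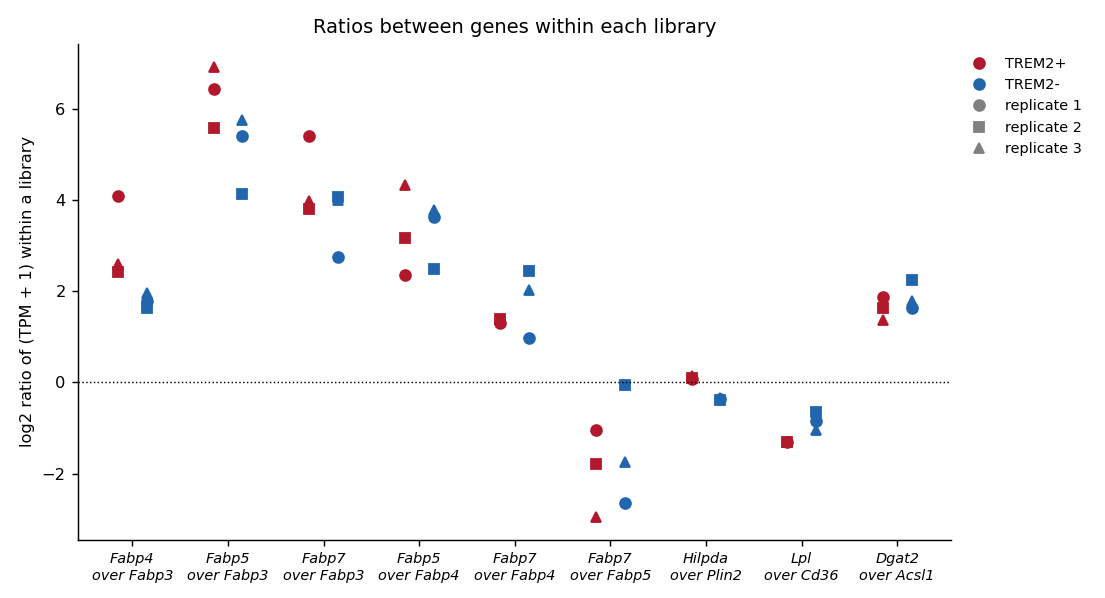
Log2 ratio of (TPM + 1) for 9 pairs of genes within each library (TREM2+ red, TREM2- blue, symbols for replicates). The points of Hilpda over Plin2 form 2 tight groups near 0.11 and -0.36, those of Lpl over Cd36 lie lower in TREM2+ libraries, and the pairs among Fabp4, Fabp5 and Fabp7 overlap.

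The libraries fell in a like order across the 10 genes. TREM2+ replicate 1 was the highest of all 6 libraries for 7 genes, and TREM2- replicate 3 was the lowest for 7. Summed over the set, the level was 2665, 2093 and 2433 TPM in TREM2+ replicates 1, 2 and 3 and 855, 1355 and 773 TPM in the TREM2- replicates. Most of that sum was Hilpda and Plin2, which set the high value of TREM2- replicate 2. The uptake genes and most binding genes ordered the TREM2- libraries otherwise: Cd36, Lpl, Fabp4, Fabp5 and Fabp3 were highest in replicate 1, whereas Plin2, Hilpda, Fabp7, Acsl1 and Dgat2 were highest in replicate 2.

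The genes were ordered by level within each group, and Fabp4 and Acsl1 changed places with ranges apart in both. In the TREM2+ libraries Hilpda (mean 1026 TPM) and Plin2 (954 TPM) had overlapping ranges and stood apart from Fabp5 (202 TPM), which stood apart from Cd36 (74.6 TPM). Cd36, Fabp7 (53.4 TPM), Lpl (29.5 TPM), Dgat2 (27.5 TPM) and Fabp4 (20.4 TPM) each overlapped the next, and Acsl1 (7.97 TPM) and Fabp3 (1.495 TPM) lay apart below. In the TREM2- libraries Plin2 (482 TPM) and Hilpda (374 TPM) again led with overlapping ranges. Fabp5 (51.5 TPM) came next, apart from Hilpda, and overlapped Dgat2 (30.6 TPM), which stood above Cd36 (18.4 TPM) with overlapping ranges. Fabp4 (3.92 TPM) lay apart below Acsl1 (7.27 TPM). These levels use the summed exon length of each gene, which is long for Lpl and Acsl1, so the order depends on the gene models.

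Few other genes of fatty acid handling passed the test between the groups. Of 84 tested genes in 7 lists, 3 were called higher and 0 lower in limma, beside 2.05% and 0.37% of all genes. At an unadjusted p under 0.05, 9 were higher and 1 was lower, with no count over all genes to set beside them. The 9 include Epas1, which passed the filter only through the TREM2+ libraries. Voom on recovered reads called 5 of these genes higher and 0 lower, beside 444 higher and 170 lower among all genes it tested, whose share is not given here. The median log2 fold change of the 84 genes was -0.01. Of these 84 genes, 10 had all TREM2+ libraries above all TREM2- libraries and 3 had them below, beside 9.07% and 7.62% of all tested genes. The 10 include Epas1, and the 3 include Mfsd2a, which passed the filter only through the TREM2- libraries. The groups of both genes had to lie apart, so neither counts as a result.

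Among 9 tested partners and regulators of lipoprotein lipase 2 rose. Gpihbp1, which anchors the enzyme to capillary endothelium, stood at 82.8, 60.9 and 49.2 TPM against 4.96, 11.4 and 3.23 TPM, a log2 fold change of 3.23 ± 0.39 (adjusted p = 0.00573 in limma). It is also a marker in the endothelial list. Apoc1, a lipoprotein component, stood at 324, 204 and 194 TPM against 99.5, 85.8 and 94.2 TPM (log2 fold change 1.32 ± 0.25, adjusted p = 0.0287 in limma). Apoc1 kept its call in 3 of 6 such refits, and its limma adjusted p missed the threshold without TREM2+ replicate 1 (0.121), TREM2- replicate 1 (0.0661) or TREM2- replicate 3 (0.0949), within 0.00331 to 0.228 over all settings. The lipase inhibitor Angptl4, at 7.62 ± 1.84 against 7.26 ± 7.19 TPM, and the receptor Lrp1, at 22.6 ± 8.72 against 20.1 ± 2.15 TPM, did not pass.

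None of 10 other uptake and activation genes, 11 other droplet genes, 14 other triglyceride and sterol ester synthesis genes, 9 lipolysis genes or 16 fatty acid oxidation genes passed in limma. At an unadjusted p under 0.05 the uptake and droplet lists had 0 genes, the synthesis list 1 higher, the lipolysis list 2 higher and the oxidation list 1 lower. Those unadjusted counts have no count over all genes beside them, so they cannot be read as more or fewer than elsewhere. Voom on recovered reads called 1 gene of the synthesis list higher and no other gene of these 5 lists, beside 444 higher and 170 lower among all genes it tested. In the uptake list Dbi, the acyl-CoA binding protein, had the smallest p, at 268 ± 31.4 against 373 ± 48.6 TPM (adjusted p = 0.398 in limma). In the droplet list it was Tmem159, a partner of seipin in droplet assembly, at 32.5 ± 2.7005 against 23.4 ± 3.75 TPM (adjusted p = 0.419 in limma). The transporter genes Slc27a1 and Slc27a4 had log2 fold changes of 0.25 ± 0.32 and -0.13 ± 0.27. The synthesis gene with the smallest p was Gpat3, which adds the first acyl chain to glycerol phosphate, at 22.1, 14.5 and 20.7 TPM against 4.84, 10.95 and 6.35 TPM (log2 fold change 1.31 ± 0.31, adjusted p = 0.0717 in limma). In the lipolysis list G0s2, an inhibitor of the lipase that acts on droplets, stood at 1896 ± 767 against 991 ± 127 TPM (adjusted p = 0.235) and the lysosomal lipase gene Lipa at 42.7 ± 1.58 against 27.2 ± 12.7 TPM (adjusted p = 0.355). The lipase gene itself, Pnpla2, stood at 80.9 ± 32.2 against 58.1 ± 6.20 TPM. The lower gene of the oxidation list was the thiolase Acaa2, at 133 ± 40.7 against 207 ± 43.6 TPM (adjusted p = 0.369), and Cpt1a, the entry step of mitochondrial oxidation, stood at 12.6 ± 3.83 against 17.0 ± 6.45 TPM.

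Of 15 tested regulators 1 passed. Nr1h3, the oxysterol receptor LXR alpha, stood at 91.1, 73.2 and 83.8 TPM against 34.7, 13.4 and 20.2 TPM, a log2 fold change of 1.91 ± 0.32 (adjusted p = 0.0194 in limma). Its call was lost without TREM2+ replicate 3 (adjusted p = 0.0519) and without TREM2- replicate 3 (adjusted p = 0.0831), within 0.000876 to 0.355 over all settings. Pparg, the nuclear receptor that drives Cd36 and Fabp4 in fat cells, stood at 16.2, 13.02 and 17.4 TPM against 11.8, 8.13 and 4.58 TPM without passing (log2 fold change 0.92 ± 0.32, adjusted p = 0.233). Hif1a, the hypoxia factor known to induce Hilpda, stood at 106.5, 115 and 114 TPM against 84.2, 69.6 and 65.6 TPM (log2 fold change 0.61 ± 0.20, adjusted p = 0.212). The groups of both genes did not overlap. Epas1, a related hypoxia factor, was low at 1.46 ± 0.13 against 0.413 ± 0.20 TPM (adjusted p = 0.201), and passed the filter only through the TREM2+ libraries.

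**Figure D4:**
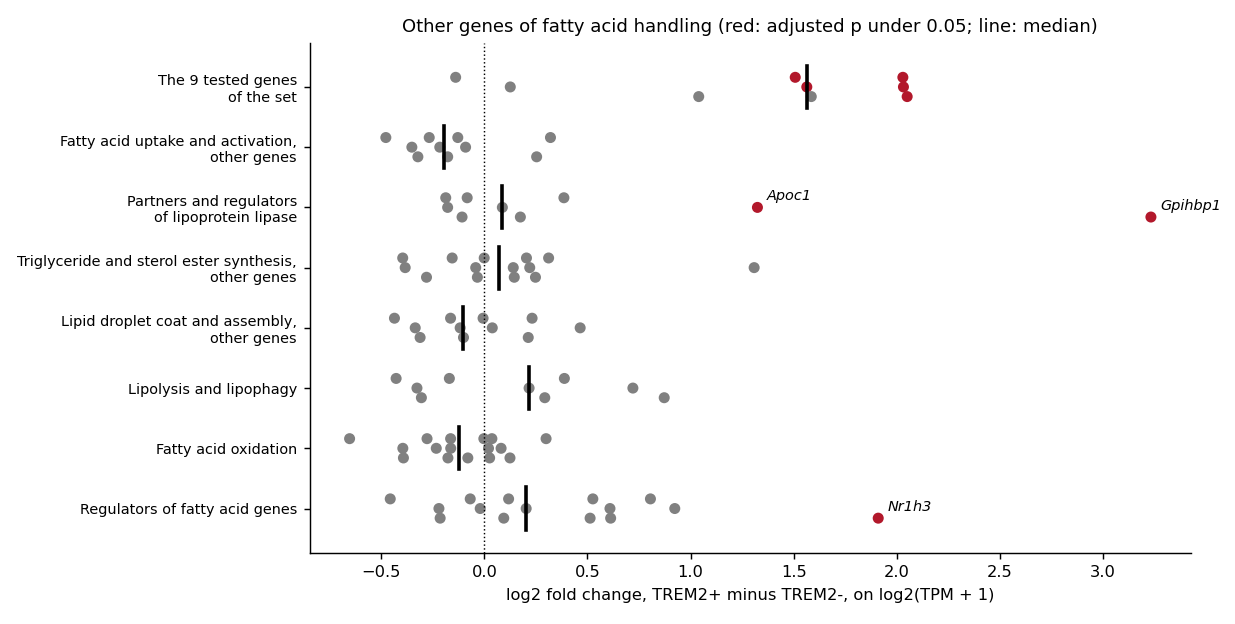
Log2 fold change (TREM2+ minus TREM2-, on log2(TPM + 1)) of the 9 tested genes described here and of the tested genes of 7 other lists of fatty acid handling. Red points have an adjusted p under 0.05 and black lines are medians, 1.56 for the set and between -0.20 and 0.22 for the other lists.

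Markers of other cells moved with these genes. Of 8 Kupffer cell markers 7 were called higher, and their summed level was 968 to 1969 TPM in the TREM2+ libraries against 142 to 246 TPM. Of 12 endothelial markers, which matter here because capillary endothelium makes CD36, FABP4 and GPIHBP1, 11 were tested and 9 were called higher, with summed levels of 265 to 376 against 22.6 to 43.7 TPM. Of these 11, Cdh5, Tek, Ptprb and Emcn lay under 1 TPM in all 3 TREM2- libraries and passed the filter only through the TREM2+ libraries. Their groups therefore had to lie apart. The count of 9 holds Cdh5, Tek and Ptprb, while Emcn was not called (adjusted p = 0.0748 in limma). None of the 12 was at 0 throughout. Pecam1 stood at 13.2 ± 1.97 against 6.25 ± 3.48 TPM, Cdh5 at 2.77 ± 0.66 against 0.28 ± 0.08 TPM and Stab2 at 9.48 ± 3.225 against 1.10 ± 0.32 TPM. Mean levels of the 12 in the TREM2+ libraries ran from 0.76 TPM (Vwf) to 159 TPM (Clec4g). The part of endothelial or Kupffer cell RNA in the levels of Cd36, Fabp4, Fabp7 and Lpl was not tested.

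Monocyte markers went the other way, with 1 of 7 called lower (Ly6c2) and all 7 below 0 on the log2 scale. Their summed levels were 3334 to 29659 against 12340 to 73305 TPM. Most of that sum was Chil3, at 27674, 11668 and 1946 TPM against 8002, 69640 and 17898 TPM, with overlapping groups (adjusted p = 0.703 in limma). At an unadjusted p under 0.05 4 of the 7 monocyte markers were lower. No unadjusted count of markers here has a count over all genes beside it, so none can be read as more or fewer than elsewhere. Voom called 3 of the monocyte markers lower, beside 444 higher and 170 lower among all genes it tested. Limma called 0 monocyte markers lower without TREM2+ replicate 3 or without TREM2- replicate 1. Of all genes 36 and 7 were called lower in these fits, beside 51 with every library. Of 8 neutrophil markers 1 was called lower (Camp), 6 were lower at an unadjusted p under 0.05 and 3 with voom. The 8 summed to 15436 to 19373 against 18026 to 22491 TPM. S100a9 was 1 marker higher at an unadjusted p under 0.05, at 7178 ± 1835 against 4206 ± 1072 TPM (adjusted p = 0.298 in limma). S100a8 stood at 5097 ± 470 against 4354 ± 1956 TPM with overlapping groups. Leaving out TREM2+ replicate 2 raised the count of neutrophil markers called lower to 4, with 72 of all genes called lower. Leaving out TREM2- replicate 2 raised it to 5, with 105 of all genes called lower. That marker count was 0 in the other 4 such fits, with 7 to 36 of all genes called lower. Macrophage markers had 1 of 9 called higher (Aif1) and 0 lower, 3 higher and 1 lower both with voom and at an unadjusted p under 0.05, and a median log2 fold change of 0.47. The count of macrophage markers called higher was 4 without TREM2- replicate 2 and 2 without TREM2+ replicate 3. Of all genes 342 and 153 were called higher in these fits, beside 282 with every library. Lyz2, which made up most of their summed level, averaged 31825.5 against 64190.2 TPM without passing (adjusted p = 0.115 in limma). Fat cell markers were near absent: Adipoq averaged 0.14 against 0.10 TPM, Plin1 0.06 against 0.02 TPM, and the 7 summed to 4.79 to 8.40 TPM in any library. None of 9 hepatocyte markers passed in limma, 0 did so at an unadjusted p under 0.05 and 0 with voom. Their summed level was 1199 TPM in TREM2- replicate 1 and 126 to 598 TPM in the other libraries. Much of that sum was Fabp1, the hepatocyte form, itself 1 of the 9 markers, at 226, 95.6 and 64.5 TPM against 664, 49.2 and 73.9 TPM. Stellate cell and fibroblast markers summed to at most 14.2 TPM.

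**Figure D5:**
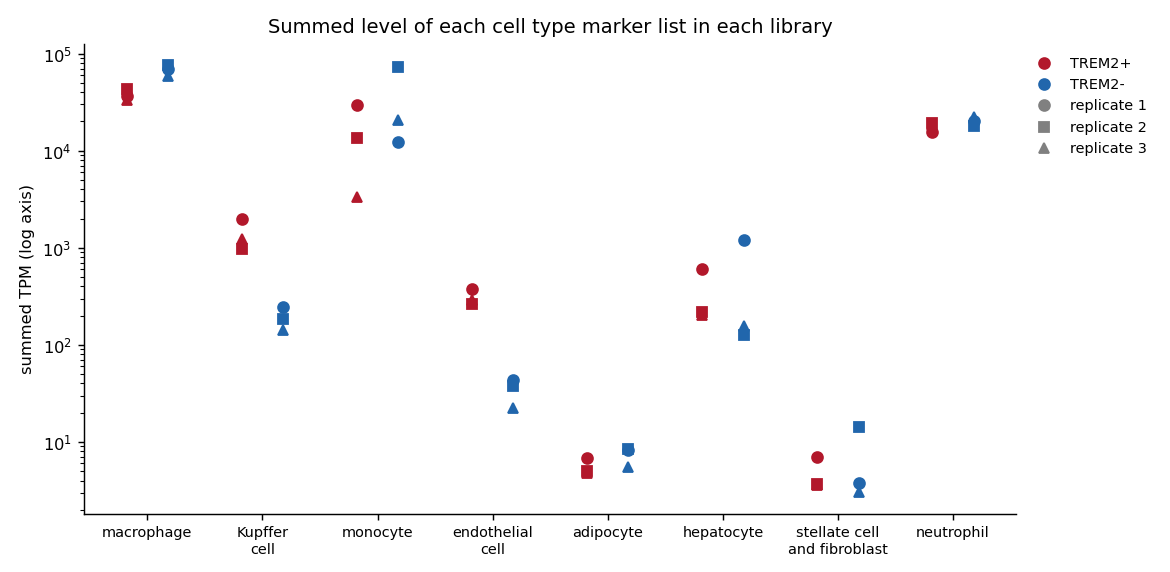
Summed TPM (log axis) of 8 lists of cell type markers in each library (TREM2+ red, TREM2- blue, symbols for replicates). Kupffer cell and endothelial lists lie higher in all TREM2+ libraries, the macrophage list, whose sum is mostly Lyz2, lies lower, and fat cell and stellate cell lists reach at most 14.2 TPM.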

How the data were processed

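Polyadenylated RNA of 6 libraries was sequenced with paired ends, per the labels' protocols. The submitters' processing notes name STAR 2.7.10a, Subread, featureCounts 2.0.3 and mm10. Annotation, strandedness and formula: not given in the sources used here. Deposited values of the authors are a length-scaled signal, not TPM per library as the design had assumed: the 6 columns together sum to 1000000. Every library was therefore rescaled to that total. Multiplying by GENCODE M21 exon lengths gave whole reads within 0.01 read for 98.7% of 36673 matched rows above 0. No column lacked a sample.

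A gene entered the fit where 3 or more libraries had 1 TPM or more. Its log2(TPM + 1) values were compared in limma (3.58.1, R 4.3.3) with a trend of variance on level, two-sided, with p-values adjusted over all genes, at 0.05. This scale understates the change of low genes. The fit was tested on simulated reads in which libraries differed only by depth, random noise and planted changes. The real libraries also differed in repeat and mitochondrial shares, so that test does not measure the error of the calls here. Errors are SE of the fit or SD over 3 libraries, and ratios within libraries used exact permutation tests. The alternatives changed the pseudocount, filter, scaling, block, trend, weights, test and libraries. Sequences are from RefSeq tables (GRCm38.p6), coordinates from GENCODE M21 on mm10. All 10 genes are described. By rule, genes of each other list past the threshold and up to 3 with the smallest p were named, with defining cell markers and Trem2. Lrp1, Pparg, Slc27a1, Slc27a4 and the family forms were added after their values were seen. The members and lists were chosen with earlier results of these data known.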

Additional observations from a re-analysis of the deposited data

How the results depend on the processing

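Across 20 other settings the log2 fold changes of Cd36, Lpl, Fabp4, Fabp5, Fabp7, Plin2 and Hilpda stayed above 0, and none of the 10 genes was called lower. The count of 5 genes called higher did not hold. It was 0 with no low-value filter and without both libraries numbered 3, and 2 with the replicate block. It was 3 with median-of-ratios scaling, with the deposited values left unscaled and without the repeat family, and 0 to 7 when 1 library was left out. Over all genes 282 were called higher in the main fit, 95 with no filter, 0 without both libraries numbered 3 and 116 with the block. That all-gene count was 375 with median-of-ratios scaling, 195 with unscaled values, 284 without the repeat family and 116 to 342 with 1 library left out. The count of 3 other pathway genes called higher was 1 with no filter, 5 with median-of-ratios scaling and 12 with library weights. It was 5 with voom on recovered reads, 0 without both libraries numbered 3, and 1 to 4 with 1 library left out. Over all genes library weights called 976 higher and voom 444.

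Signs turned for 5 results, none of them called. With 1 library left out, Acsl1 ranged from -0.046 to 0.26, Dgat2 from -0.36 to 0.15, the log2 ratio of Fabp5 over Fabp4 from -0.54 to 0.45 and that of Fabp7 over Fabp5 from -1.03 to 0.27. Fabp5 over Fabp4 was 0.49 with a pseudocount of 5 and 0.61 without both libraries numbered 1. Fabp7 over Fabp3 was -0.36 with a pseudocount of 0.1 and -0.15 without both libraries numbered 1. The cause was not tested. Replicate numbers were not taken as pairs, since not every correlation passed 0.1: deviations of same-numbered libraries correlated at 0.19, -0.03 and 0.22, and TREM2+ replicate 2 correlated best with TREM2- replicate 3 (0.13). The libraries numbered 1 and those numbered 3 did correlate best with their own number, and in both groups the repeat family's share was lowest in number 1 and highest in number 3. Of all calls 84.7% were higher, and 68.7% with the deposited values, 73.8% without the repeat family, 72.3% with voom and 71.5% with library weights. Library weights moved the median log2 fold change of all genes from -0.09 to 0.02. Depth limits Fabp3, with 0 to 13 reads per library.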
